A study of Mus musculus with 6 samples.

Results

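The genes described here encode the vanins, which release pantothenate (vitamin B5) outside the cell, and the enzymes that turn pantothenate into coenzyme A. They are Vnn1, Vnn3, Pank1, Pank2, Pank3, Pank4, Ppcs, Ppcdc and Coasy. They were taken from the table of counts by gene symbol and were chosen by their function with the EV-treated over control values of these libraries in view. All 9 were found among 48005 gene entries. One of them, Pank2, is counted in an entry joined with the gene model Gm14233, whose exons overlap its 3′ end. Because the choice was made with this comparison known, the values of the 9 genes are a description and carry no p-value.

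RNA was sequenced from cultured microglia, the macrophages of the brain, of the CD1 mouse strain, with 3 EV-treated and 3 control samples. The EV-treated cells received extracellular vesicles (EVs), membrane-bound particles shed by cells, which were spun down from cultures of primary neural stem cells of the subventricular zone of CD1 mice. The control cells received a control treatment that the labels do not describe further. The labels state neither dose, duration nor age, nor whether replicates were separate cultures or animals, so each p-value reflects only how these libraries vary among themselves, and that variation may be technical.

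Vanins are pantetheinases, ectoenzymes attached to the cell surface that split pantetheine into pantothenate and cysteamine. Inside the cell, a pantothenate kinase phosphorylates pantothenate in the step that limits and controls the rate of the pathway, PPCS adds cysteine, PPCDC removes the carboxyl group, and the bifunctional COASY adds the nucleotide and the last phosphate. Coenzyme A carries acyl groups in fatty acid oxidation, fatty acid synthesis and the citric acid cycle, and human mutations in PANK2 or COASY cause neurodegeneration with brain iron accumulation.

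The promoter of Vnn3 is shown because Vnn3 had the widest difference of the genes described. It is the stretch of 250 bases before the annotated start, on the plus strand at chr10:23851212-23851461 (RefSeq, GRCm38.p6). Capitals mark matches to TTNCNNAA, the letters searched for sites of the C/EBP type.
Vnn3 promoter: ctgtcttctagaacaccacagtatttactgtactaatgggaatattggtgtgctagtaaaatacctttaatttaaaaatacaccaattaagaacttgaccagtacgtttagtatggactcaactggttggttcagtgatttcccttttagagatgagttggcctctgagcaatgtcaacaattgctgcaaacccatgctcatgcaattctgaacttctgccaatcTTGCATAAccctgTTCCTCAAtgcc
The 2 matches began 25 and 12 bases before the start. On either strand, 36.8% of 32851 promoter windows of the same length hold at least 1 match to TTNCNNAA. Among windows of the other genes described, that of Pank4 also held 2 matches, and no window was available for Vnn1 or Coasy. Pank2, Ppcs and Ppcdc each had a window with 1 match, and Pank1 and Pank3 had 0. The Vnn3 window held no match to GGANTTCC (NF-kB type, in 3.997% of windows), TTCNNNGAA (STAT, 7.02%) or TGACGTCA (cyclic AMP response element, 1.55%). That of Ppcs held 1 match to GGANTTCC and 1 to TTCNNNGAA, and the windows of the other genes searched held none of these. A match is a description of letters, and no binding was measured.

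Introns of Pank1, Pank2 and Pank3 hold microRNAs, which are shown because they share a seed while only the host gene Pank1 had a call. The mature sequences are from RefSeq (GRCm38.p6), with the seed, bases 2 to 8, in capitals.
mmu-miR-103-3p: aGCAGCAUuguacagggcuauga
mmu-miR-107-3p: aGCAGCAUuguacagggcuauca
The mature miR-103-3p is encoded in Pank2 (chr2:131288103-131288125, plus strand) and again in Pank3 (chr11:35782447-35782469, plus strand), and miR-107-3p in Pank1 (chr19:34820700-34820722, minus strand). Both microRNAs carry the same seed. None of the 3 lies in an exon bin of its host entry, and libraries of polyadenylated RNA do not measure mature microRNAs.

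Summed over exon bins, the counts came to 133112063 to 142805303 in EV-treated and 109744701 to 162544804 in control libraries. Microglia and macrophage markers dominated the lists of cell type markers. They summed to 4459 to 4579 CPM (counts relative to TMM-scaled library size) in EV-treated and 7006 to 8726 CPM in control libraries. Of the 10 markers 7 fell, where 33.5% of all entries tested did. The deepest fall was that of Cx3cr1, at a log2 fold change of -7.09. Csf1r (0.06), Itgam (a joined entry, 0.03) and Aif1 (-0.59) were not among the 7. Astrocyte markers summed to 92.6 to 130.0 CPM in EV-treated and 3.37 to 4.995 CPM in control libraries, carried by Slc1a2 and Gja1, while Gfap and Aqp4 averaged 0.0365 and 0.00521 CPM in EV-treated libraries. Neural stem cell markers summed to 3.35 to 3.78 CPM in EV-treated and 55.4 to 97.7 CPM in control libraries. Endothelial markers summed to 24.6 to 35.0 CPM in EV-treated and 4.605 to 6.004 CPM in control libraries. Most of this was Kdr, at 21.3 to 31.0 CPM in EV-treated and 4.17 to 5.70 CPM in control libraries. In EV-treated libraries Pecam1, Cdh5 and Cldn5 averaged 2.34, 1.86 and 0.00521 CPM. The libraries also differed in sex-linked transcripts: the summed level of 4 Y-linked genes was 2.20% to 3.44% of that of Xist in EV-treated libraries, and 6.87% in control C, 32.0% in control B and 39.1% in control A. The part of these differences in the results was not tested, except that each fold change was refitted with the sex-linked ratio as a covariate. In bulk RNA, fewer cells of a type and less RNA per cell cannot be told apart.

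Across the pathway, Vnn3 had 1323 times its control level in EV-treated libraries, while Pank1, Ppcs, Ppcdc and Coasy were lower and Pank2, Pank3 and Pank4 had no call. A call means an adjusted p under 0.05 in edgeR's quasi-likelihood test, adjusted over all 16605 entries tested. Of the 9 genes, 8 passed the filter on low counts, and Vnn1 did not. Of the 8, 1 was called as risen, where 33.0% of all entries were, and 4 as fallen, where 33.5% were, so that 5 of 8 had a call beside 66.5% of all entries. The 3 EV-treated libraries lay wholly above or wholly below the 3 control libraries in 7 of the 8, beside 71.3% of all entries. The genes were chosen with these values known, and nothing is read from their counts. The median log2 fold change was -0.28 over the 8 genes and -0.02 over all entries.

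**Figure D1:**
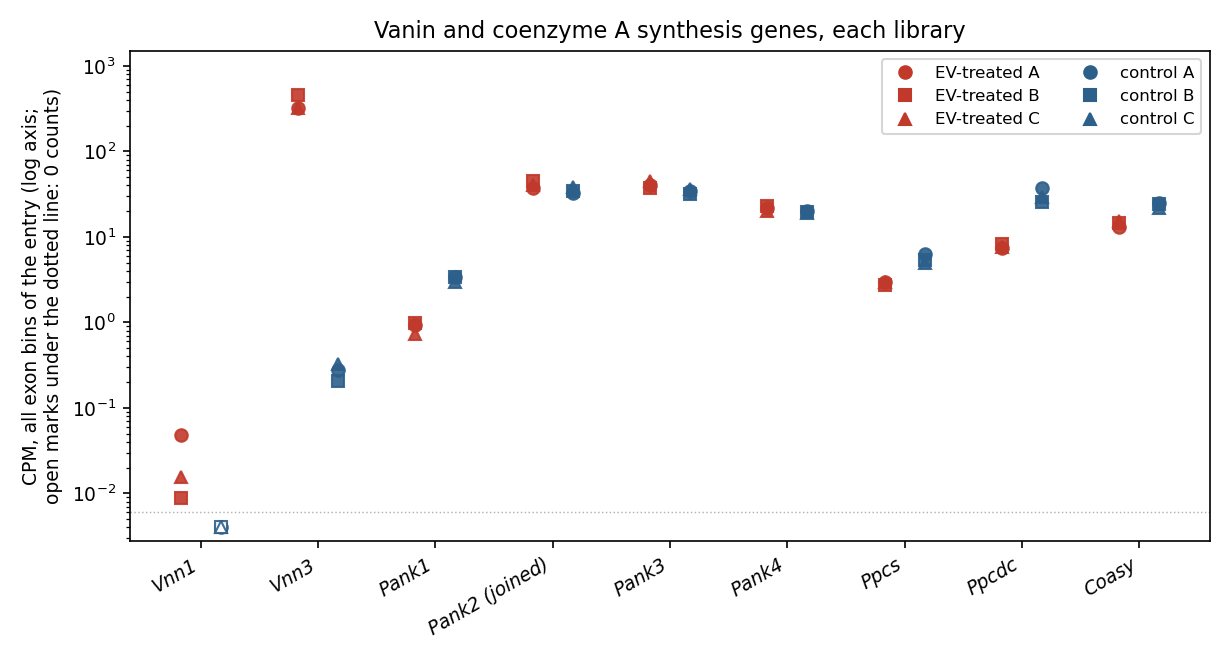
Level of each gene in each library in CPM over all exon bins of its entry, on a log axis, with EV-treated libraries in red on the left and control libraries in blue on the right of each pair. Vnn3 lies between 319 and 459 CPM in EV-treated and between 0.205 and 0.329 CPM in control libraries, and Vnn1 had 0 counts in every control library.

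Vnn3 (ENSMUSG00000020010) lies at chr10:23851462-23869843 on the plus strand of GRCm38 and has 7 exon bins. Its product is a membrane-anchored vanin. It had 39866, 52194 and 40878 counts in EV-treated libraries A, B and C, and 37, 26 and 62 counts in control libraries A, B and C. Scaled to CPM, these were 321.8, 458.8 and 319.2 in EV-treated A, B and C, against 0.281, 0.205 and 0.329 in control A, B and C. The groups were far apart, and EV-treated B was the highest library. The mean was 367 ± 79.9 CPM in EV-treated and 0.272 ± 0.0626 CPM in control libraries (SD, n = 3 each). The log2 fold change was 10.37 (SE 0.26), a ratio of 1323, which placed Vnn3 at rank 19 of the 16605 entries.

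Each of the 7 exon bins of Vnn3 was higher in every EV-treated library than in every control library. The bin with the most counts, the coding bin at chr10:23865628-23865998, had 8645, 11442 and 9048 counts in EV-treated A, B and C, and 7, 8 and 15 in control A, B and C. The bin that begins at the annotated start, chr10:23851462-23851796, had 3501, 4344 and 3573 counts in EV-treated A, B and C, and 3, 3 and 7 in control A, B and C. The difference thus ran along the whole annotated transcript, from the start shown above to the last exon. In the 6 bins where the control counts allowed a ratio of means, its log2 was between 10.04 and 11.03.

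Vnn1 (ENSMUSG00000037440), which encodes the vanin known as a pantetheinase of liver, gut and kidney and as a target of PPARα, lies downstream of Vnn3 at chr10:23894688-23905343 on the same strand. It had 6, 1 and 2 counts in EV-treated A, B and C, and 0 counts in each control library. In CPM these were 0.0484, 0.00879 and 0.0156 in EV-treated libraries, beside a limit of 0.0159 to 0.0236 CPM that 0 counts (under 3 in a library) allow in control libraries. With so few counts no fold change is given. Vnn1 and Vnn3 are separated by 24844 bases with 0 other entries between them, yet over the EV-treated libraries Vnn3 had 132938 counts and Vnn1 had 9.

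Neutrophils are a blood cell type known for vanin genes in humans. Their markers summed to 0.848 to 0.949 CPM in EV-treated and 0.205 to 0.414 CPM in control libraries. Of the 6 markers only 2 passed the filter on low counts, of which 1 rose and 1 fell. Most of the EV-treated sum was Camp, which rose, with 96, 102 and 81 counts in EV-treated A, B and C, against 1, 0 and 9 in control A, B and C. Cxcr2 fell, with 0, 6 and 4 counts in EV-treated A, B and C, against 44, 24 and 66 in control A, B and C. Mpo had 8, 0 and 20 counts in EV-treated A, B and C, against 0, 2 and 0 in control A, B and C. Elane was at 0 counts in all 6 libraries, and Ly6g was at 0 in every EV-treated library and had 4, 0 and 0 counts in control A, B and C. The part of these cells in the level of Vnn3 was not tested.

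By the distance of centred log2 CPM over the 6 libraries, the 5 tested genes whose pattern was most like that of Vnn3 were Adm (0.513), Il1b (0.590), Il12b (0.730), Csf3 (0.801) and Cxcl1 (0.813). They encode the peptide adrenomedullin, the cytokines interleukin 1 beta, the interleukin 12 p40 subunit and G-CSF, and a chemokine. The 6 libraries fall into 2 groups, and the distance is a description of them alone. Vnn1 had too few counts for this measure.

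The Pank genes did not move together. Pank1 (ENSMUSG00000033610, chr19:34810894-34879455, minus strand), which encodes the isoforms that predominate in liver, had 0.936, 0.985 and 0.726 CPM in EV-treated A, B and C, against 3.39, 3.36 and 2.98 CPM in control A, B and C. All EV-treated libraries were lower, and the log2 fold change was -1.88 (SE 0.19), with a call. Per kilobase of exon bins, Pank1 was the least abundant of the 4 Pank genes in both groups.

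The start of Pank1 differs between its transcripts. The exon at the outermost start, chr19:34878524-34879455, had 13, 8 and 12 counts in EV-treated A, B and C, against 72, 57 and 78 in control A, B and C. The first exon of the transcript that starts further inside, chr19:34877686-34877917, had 0 counts in all 6 libraries, which allows up to 3 counts, or 0.0159 to 0.0264 CPM, in each. Of the 9 bins, 8 were lower in every EV-treated library.

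Pank2 (ENSMUSG00000037514, joined with Gm14233, chr2:131262495-131299835, plus strand) had 37.4, 45.2 and 39.95 CPM in EV-treated A, B and C, against 32.5, 34.3 and 38.1 CPM in control A, B and C. The groups overlapped, and the log2 fold change of 0.22 (SE 0.11) had no call. Human PANK2 is the kinase found in mitochondria.

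Pank3 (ENSMUSG00000018846, chr11:35769484-35791285, plus strand) encodes a cytosolic kinase that acetyl-CoA inhibits. It had 39.99, 37.5 and 44.5 CPM in EV-treated A, B and C, against 34.8, 31.9 and 36.0 CPM in control A, B and C. The groups did not overlap, and the log2 fold change was 0.25 (SE 0.10) with no call, although 6 of 15 alternatives gave one, at 0.25 to 0.33. With library totals alone as the scale, it was -0.11.

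Pank4 (ENSMUSG00000029056, chr4:154964123-154980938, plus strand) encodes a protein that resembles the kinases, lacks kinase activity in mammals and carries a phosphatase domain. It had 22.0, 23.2 and 20.2 CPM in EV-treated A, B and C, against 20.0, 19.5 and 18.8 CPM in control A, B and C. The lowest EV-treated library lay just above the highest control library. The log2 fold change of 0.17 (SE 0.10) had no call and was -0.20 with library totals alone.

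Per kilobase of exon bins, the 4 Pank genes summed to 20.2 ± 0.793 CPM in EV-treated and 18.1 ± 0.541 CPM in control libraries (SD, n = 3 each). With library totals alone as the scale the order turned round, at 17.8 in EV-treated and 20.6 in control libraries. Pank1 took 1.30%, 1.27% and 0.982% of the sum in EV-treated A, B and C, against 5.13%, 5.14% and 4.31% in control A, B and C. Its share was lower in every EV-treated library, and shares do not depend on the scaling. Pank2 took 40.5% in EV-treated and 38.7% in control libraries, Pank3 27.4% and 25.6%, and Pank4 31.0% and 30.8%, each with overlapping groups. These shares depend on the bins used: with the top bin of each gene alone, Pank2 took 11.1% in EV-treated and 27.4% in control libraries, Pank3 48.3% and 37.2%, and Pank4 38.8% and 30.2%.

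**Figure D2:**
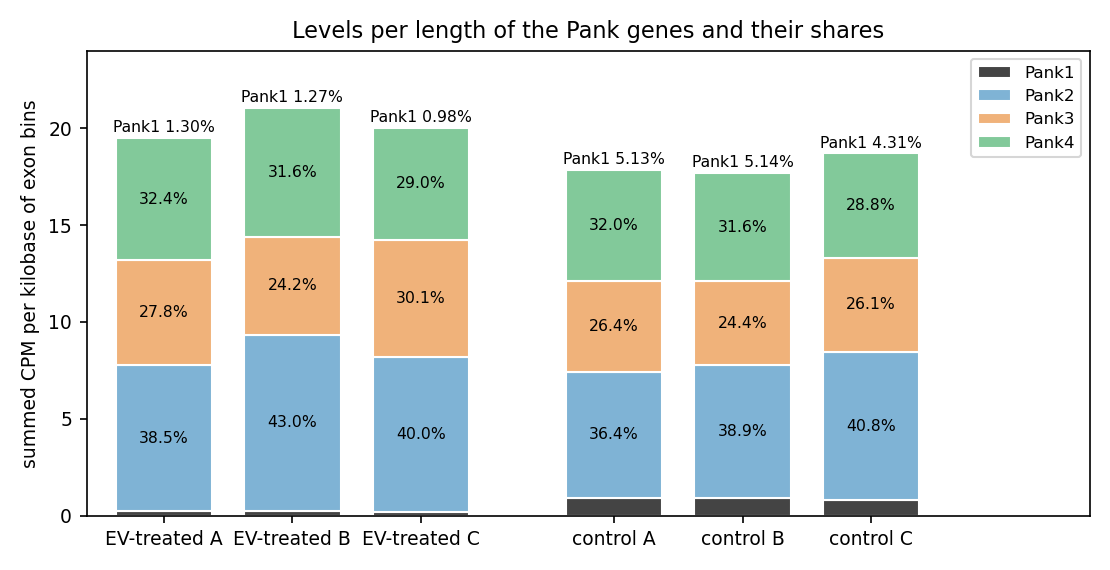
Summed CPM per kilobase of exon bins of the 4 Pank genes in each library, EV-treated on the left and control on the right, with each gene's share printed. The dark Pank1 segment holds 0.982% to 1.30% in EV-treated and 4.31% to 5.14% in control libraries.

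Within Pank2 the exon bins disagreed. Of 28 bins, 8 were higher and 1 was lower in every EV-treated library, and 19 overlapped. The lower one is a long bin of the 3′ UTR, chr2:131296692-131298544, which had 211, 234 and 326 counts in EV-treated A, B and C, against 718, 692 and 1125 in control A, B and C. In CPM it had 1.70, 2.06 and 2.55 in EV-treated and 5.45, 5.45 and 5.97 in control libraries, a log2 ratio of means of -1.42. Summed, the 11 bins inside the coding sequence were higher in every EV-treated library, at 23.9 ± 2.42 CPM in EV-treated and 19.5 ± 1.18 CPM in control libraries (SD, n = 3 each), a log2 ratio of means of 0.29, although taken singly only some of these bins kept the groups apart. The 3′ UTR bins that overlap no Gm14233 exon together held 20.2%, 17.7% and 22.1% of the entry's counts in EV-treated A, B and C. In control A, B and C they held 27.9%, 27.8% and 29.3%.

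The lower bin ends next to the first exon of Gm14233, and the bin of the 3′ UTR on the far side of that exon, chr2:131298904-131299186, was higher in every EV-treated library, with a log2 ratio of means of 0.44. Near the other end of the gene, the 5′ UTR bin chr2:131262525-131262567 had 35, 163 and 156 counts in EV-treated A, B and C, against 54, 47 and 72 in control A, B and C. EV-treated B and C were high there and EV-treated A was not. Because the lower bin is also the one with the most counts, a level taken from the top bin alone gives Pank2 a log2 fold change of -1.34 with a call.

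**Figure D3:**
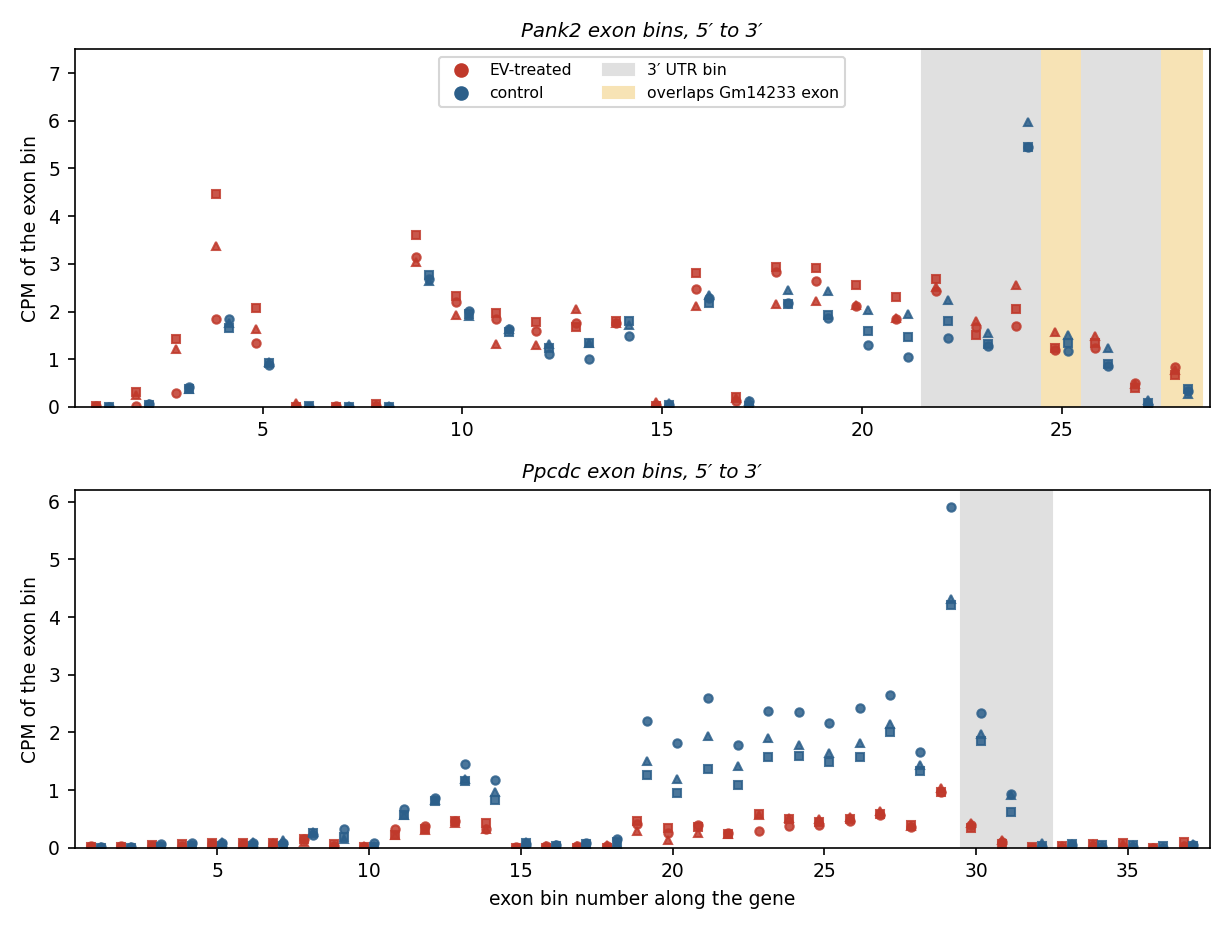
CPM of each exon bin of Pank2 (top) and Ppcdc (bottom) in each library, ordered from the 5′ to the 3′ end, EV-treated in red and control in blue, with circles for library A, squares for B and triangles for C. In Pank2, bin 24 has 1.70 to 2.55 CPM in EV-treated and 5.45 to 5.97 CPM in control libraries while most other bins overlap, and in Ppcdc the lower level runs along the gene.

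The genes of the steps after the kinases were lower in EV-treated libraries. Ppcs (ENSMUSG00000028636, chr4:119418530-119422420, minus strand), which encodes phosphopantothenoylcysteine synthetase, had 2.99, 2.76 and 2.99 CPM in EV-treated A, B and C, against 6.24, 5.41 and 5.003 CPM in control A, B and C. The groups did not overlap, and the log2 fold change of -0.93 (SE 0.15) had a call. With the sex-linked covariate it was -0.68 (SE 0.27), with no call. In 6 of its 7 bins every EV-treated library was lower.

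Ppcdc (ENSMUSG00000063849, chr9:57385095-57440124, minus strand), which encodes phosphopantothenoylcysteine decarboxylase, fell about as far as Pank1. It had 7.39, 8.17 and 7.66 CPM in EV-treated A, B and C, against 37.0, 25.3 and 29.0 CPM in control A, B and C. The EV-treated libraries lay close together and the control libraries were spread, with control A the highest. The log2 fold change was -1.98 (SE 0.15), so control libraries had 3.93 times the EV-treated level, and it was -1.83 without control A, where Pank1 was at -1.86. In 23 of 37 bins every EV-treated library was lower, and no bin was higher in every EV-treated library. The bins of the coding sequence had 4.41 ± 0.264 CPM in EV-treated and 18.0 ± 3.91 CPM in control libraries (SD, n = 3 each). Bins of the 3′ UTR held a smaller share of the counts, 6.42% in EV-treated and 9.64% in control libraries, while bins of the 5′ UTR held 6.11% in EV-treated and 3.13% in control libraries and bins of other transcripts 13.2% in EV-treated and 9.69% in control libraries, each with no overlap between the groups.

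Coasy (ENSMUSG00000001755, chr11:101082565-101086619, plus strand), which encodes coenzyme A synthase, had 12.9, 14.4 and 15.2 CPM in EV-treated A, B and C, against 24.9, 24.04 and 21.7 CPM in control A, B and C. The groups did not overlap, and the log2 fold change of -0.74 (SE 0.11) had a call. With the sex-linked covariate it was -0.58 (SE 0.21), with no call. In 10 of 15 bins every EV-treated library was lower, and in 5 the groups overlapped.

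**Figure D4:**
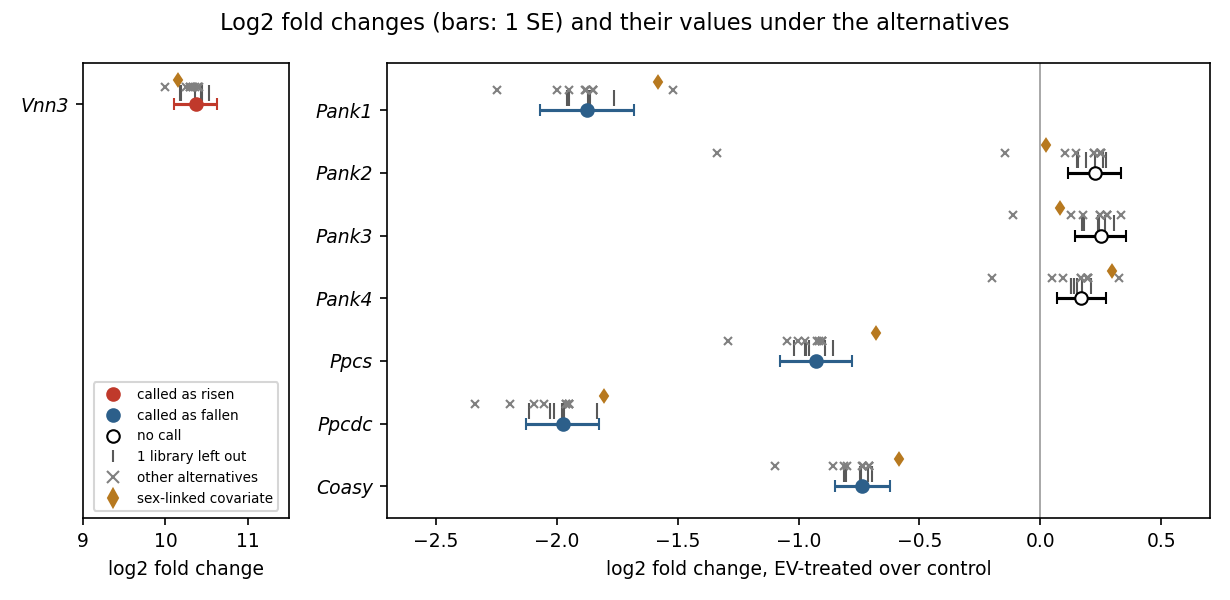
Log2 fold change, EV-treated over control, of the 8 genes that passed the filter (points, with 1 SE), with the value when each library is left out, under the other alternatives and with the sex-linked covariate. Vnn3 has a panel of its own at about 10.37, and Pank1, Ppcs, Ppcdc and Coasy stay below 0 under every alternative drawn, while Pank2, Pank3 and Pank4 lie on either side of 0.

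Levels of different genes were compared per kilobase of exon bins. In EV-treated libraries Vnn3 came first at 202 CPM per kilobase, followed by Pank2 at 8.18, Pank4 at 6.26, Pank3 at 5.51, Coasy at 4.93, Ppcs at 1.81, Ppcdc at 1.33, Pank1 at 0.239 and Vnn1 at 0.0100. Neighbours overlapped in this order for Pank4 with Pank3 and for Pank3 with Coasy. In control libraries Coasy came first at 8.22 CPM per kilobase, followed by Pank2 at 7.003, Pank4 at 5.56, Ppcdc at 5.25, Pank3 at 4.64, Ppcs at 3.46, Pank1 at 0.877, Vnn3 at 0.150 and Vnn1 at 0 counts. Neighbours overlapped there for Coasy with Pank2, Pank4 with Ppcdc and Ppcdc with Pank3. Reads across several short bins may be counted in each, so this order depends on the bins used: over coding bins Ppcdc came first in control libraries, at 34.9 CPM per kilobase, and Pank2 followed at 17.9.

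Around the pathway, 75 genes were grouped by role, of which 60 passed the filter on low counts. Of the 60, 22 rose and 24 fell, beside the 33.0% and 33.5% of all entries, with a median log2 fold change of -0.16. Of the genes that supply pantothenate and its precursors, Slc5a6, the sodium-dependent multivitamin transporter that takes up pantothenate, had 4.71 to 5.29 CPM in EV-treated and 7.56 to 10.1 CPM in control libraries and fell by 0.87 on the log2 scale (SE 0.15, edgeR adjusted p = 0.000626). Its value was -0.43, with no call, once the sex-linked ratio was in the fit. Enpp1, an ectophosphodiesterase that can hydrolyse coenzyme A outside the cell, had 16.8 to 17.3 CPM in EV-treated and 25.2 to 45.7 CPM in control libraries and fell by 1.10 (SE 0.19, edgeR adjusted p = 0.000582). Enpp3 did not pass the filter. None of this group rose, except Enpp3 without control C, when it passed the filter.

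The nitrilase relatives of the vanins went both ways, with 2 of 4 risen and 1 fallen. Btd, which encodes biotinidase, the enzyme that releases the vitamin biotin, rose by 1.62 (SE 0.12, edgeR adjusted p = 1.74e-06), with 19.2 to 21.0 CPM in EV-treated and 5.97 to 7.18 CPM in control libraries. Upb1, the beta-ureidopropionase gene, rose at a low level (edgeR adjusted p = 9.87e-05), with 44, 30 and 22 counts in EV-treated A, B and C, against 0, 1 and 0 in control A, B and C. Nit2, an omega-amidase gene, fell by 1.08 (SE 0.14, edgeR adjusted p = 0.000117).

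Of 6 genes that break down or transport coenzyme A, 3 fell and none rose, while 5 fell with upper-quartile scaling and 6 with library totals alone. Among them Nudt8, which fell only with library totals alone, is counted in an entry joined with Doc2g and Gm49405. The deepest fall was that of Nudt7, the peroxisomal coenzyme A diphosphatase, with 0.656 to 0.861 CPM in EV-treated and 4.33 to 4.49 CPM in control libraries and a log2 fold change of -2.55 (SE 0.18, edgeR adjusted p = 1.31e-06). Nudt19, its paralog, fell by 1.22 (SE 0.12, edgeR adjusted p = 1.72e-05). Of 8 genes that transfer or carry the phosphopantetheine arm of coenzyme A, 5 fell and 1 rose. The exception, Aldh1l2, is the mitochondrial 10-formyltetrahydrofolate dehydrogenase and had 129 to 221 CPM in EV-treated and 1.13 to 2.03 CPM in control libraries, a log2 fold change of 6.78 (SE 0.29, edgeR adjusted p = 5.47e-08). The cytosolic gene Aldh1l1, joined with Gm45901, had the deepest fall of this group at -2.96 (SE 0.28, edgeR adjusted p = 9.1e-06).

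Cysteamine is the other product of the vanin reaction, and cysteine is the substrate of PPCS. Of 5 tested genes of cysteamine and taurine, 3 fell and 2 rose. Ado, which encodes the enzyme that oxidises cysteamine to hypotaurine, had 8.51 to 9.40 CPM in EV-treated and 30.8 to 32.3 CPM in control libraries and fell by 1.80 (SE 0.10, edgeR adjusted p = 3.26e-07). Csad, the cysteine sulfinate decarboxylase gene, fell by 2.67 (SE 0.17, edgeR adjusted p = 6.94e-07), and Cdo1, the cysteine dioxygenase gene, rose by 1.82 (SE 0.42, edgeR adjusted p = 0.00342). Of 7 tested genes of cysteine and glutathione supply, 6 rose and none fell, and with library totals alone 6 rose and 1 fell. The steepest was Slc7a11, the cystine importer gene, with 628 to 723 CPM in EV-treated and 34.7 to 39.5 CPM in control libraries.

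Among users of coenzyme A, 7 of 12 tested acyl-CoA synthetase genes rose and 3 fell; scaled by library totals alone, 5 rose and 4 fell. Acss1, the mitochondrial acetyl-CoA synthetase gene, rose by 3.68 (SE 0.15, edgeR adjusted p = 5.09e-08), with 255 to 278 CPM in EV-treated and 18.2 to 25.4 CPM in control libraries. Acsf3, the mitochondrial malonyl-CoA synthetase gene, fell by 1.62 (SE 0.17, edgeR adjusted p = 2.45e-05). Of 11 tested acyl-CoA thioesterase genes, 3 rose and 4 fell, with Acot7 at 1.65 (SE 0.16) and Them6 at -2.43 (SE 0.29). Only 2 fell without control B, and 2 rose and 2 fell without EV-treated A or with the sex-linked covariate.

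Of the regulators known for Vnn1 or Pank1 in other tissues, 5 passed the filter, of which 1 rose and 3 fell. Ppard, which encodes the nuclear receptor PPARδ, had 156 to 185 CPM in EV-treated and 21.0 to 23.9 CPM in control libraries and rose by 2.94 (SE 0.12, edgeR adjusted p = 3.73e-08). Pparg, which encodes PPARγ, had 0.334 to 0.694 CPM in EV-treated and 7.22 to 13.3 CPM in control libraries and fell by 4.41 (SE 0.34, edgeR adjusted p = 2.61e-06). Ppara, the receptor gene best known for the control of Vnn1, and Ppargc1a did not pass the filter.

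**Figure D5:**
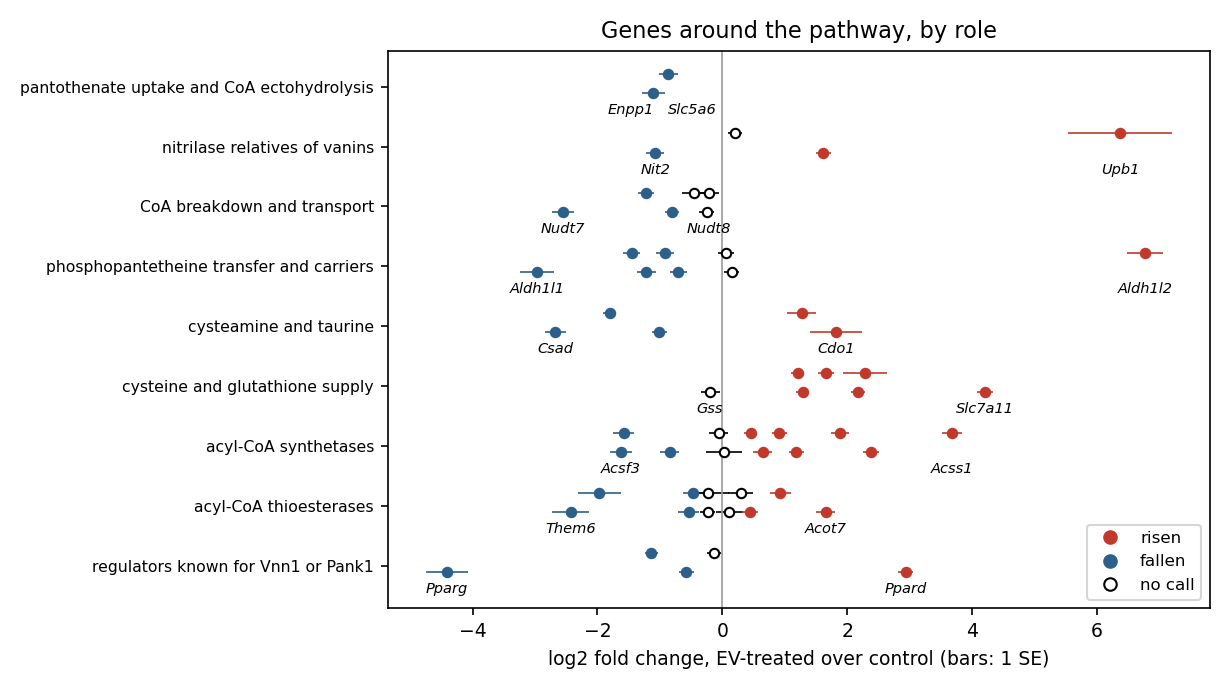
Log2 fold change, EV-treated over control (points, with 1 SE), of the 60 tested genes around the pathway, grouped by role, with rises in red, falls in blue and genes with no call open. The outermost genes of each group are named, among them Slc7a11 at 4.21, Aldh1l2 at 6.78 and Pparg at -4.41.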

How the data were processed

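The authors deposited raw counts for exon bins, whole numbers beside the gene identifier, position and strand of the bin, per the file headers. Trimmomatic 0.36, STAR, Subread, DESeq2 and GRCm38 are listed in the submitters' processing notes. How reads were counted, on which strand and with which annotation is not given in the sources used here, so a gene and an overlapping or antisense one may share reads. Libraries were made from polyadenylated RNA with the NEBNext Ultra kit, and 56000000 to 84000000 reads of a sample are stated, fewer than the totals counted, so a read may be counted in several bins. The table of all samples held the same counts as the single files in 6 of 6 libraries. Joined entries (1194 of 48005) took 11.3% to 16.5% of the counts.

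Counts were summed per entry and named from GENCODE vM21, which also gave the bin classes. For Pank1, on the minus strand, the 3′ end lies at 34806940 there and at 34810894 in the files, while the outermost start (34879455) is the same. The level of Pank1 thus holds no counts from the stretch beyond the 3′ end in the files. Entries were filtered with filterByExpr, scaled by TMM and tested, 2-sided, with edgeR 4.0.16 (glmQLFit, glmQLFTest, R 4.3.3), with Benjamini-Hochberg adjustment over 16605 entries and a threshold of 0.05. The SE was computed from the log2 fold change and the F statistic. The common biological coefficient of variation was 0.174. Limits for 0 counts are 3 counts in a library and cover counting error only. Replicate libraries all differed beyond sampling noise (chi-square over its degrees of freedom 82.7 to 248). Ratios of bins are ratios of mean CPM, untested. The fit was tested on simulated data. Figures used Python 3.11.15, pandas 2.3.3 and matplotlib 3.10.9.

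The 9 genes, the related lists and the markers were chosen with earlier results of these data known. Named in each related list are the highest rise and the deepest fall among the calls. Slc5a6, Btd, Nudt19 and Ado, and the exon bins described, were chosen after their values were seen. As alternatives, scaling was by RLE, upper quartile or library totals, the filter was dropped or made stricter, the test was DESeq2 1.42.0 or limma-voom (limma 3.58.1), a replicate block was added, libraries were left out in turn, and the top bin stood for the gene. Coding bins, the sex-linked covariate and the total-count scaling of the Pank sum were chosen after seeing the data.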

Additional observations from a re-analysis of the deposited data

How the results depend on the processing

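Each of the 8 log2 fold changes had 15 alternatives. Of these 120 values 110 kept their direction and their side of the threshold, 6 passed it and 4 changed sign. Vnn3, Pank1, Ppcs, Ppcdc and Coasy kept their call under all 15. With library totals alone, which moves the median over all entries to -0.38, Pank2 was at -0.15, Pank3 at -0.11 and Pank4 at -0.20, none of them called. With the top bin alone Pank2 was at -1.34, called as fallen. Pank3 was called as risen with RLE scaling (0.28), with at least 50 counts in 3 libraries (0.27), with DESeq2 (0.28) and with the top bin (0.33), so that 2 of the genes had risen under each. Leaving out libraries gave Pank3 0.17 to 0.31, with a call without EV-treated B, and 1 to 2 risen genes.

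With the sex-linked covariate, whose ratio largely followed the groups, 3597 entries rose and 3672 fell in place of 5482 and 5555. Of the genes described 2 fell in place of 4, with Ppcs at -0.68 and Coasy at -0.58, while Vnn3 (10.15), Pank1 (-1.58) and Ppcdc (-1.81) kept their calls. The cause of the lost calls was not tested.

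The labels do not say whether libraries with the same replicate letter belong together. Deviations from the group means correlated at 0.035, 0.167 and 0.210 between libraries with the same letter. Each library correlated best with its own letter, although EV-treated A correlated at 0.034 with control B. With 3 libraries in a group, these correlations cannot decide whether the libraries were paired. With the replicate block 11609 entries were called in place of 11037, and 2 of the genes had risen, with Pank3 at 0.25 (SE 0.08).

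The shares of the Pank sum depended on how length enters, but Pank1 took less in EV-treated libraries under each. With the top bin alone Pank1, Pank2, Pank3 and Pank4 took 1.85%, 11.1%, 48.3% and 38.8% in EV-treated libraries, and Pank2 and Pank3 27.4% and 37.2% in control libraries. With no division by length Pank1, Pank3 and Pank4 took 0.848%, 39.1% and 20.9% in EV-treated and 3.54%, 37.3% and 21.2% in control libraries. Over coding bins Pank2 and Pank4 took 52.4% and 20.8% in EV-treated libraries, and Pank2, Pank3 and Pank4 49.1%, 24.4% and 21.4% in control libraries. Depth left Vnn1 without a fold change, with 9 counts in all EV-treated libraries together. Low counts also limit Vnn3 in control A, B and C, at 37, 26 and 62 counts, where 6 of 7 bins allowed a ratio. Pank1 had 116, 112 and 93 counts in EV-treated A, B and C, and 6 of its 9 bins allowed a ratio.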

Other observations

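The neighbours of the vanin genes on chromosome 10 did not share the rise of Vnn3. Slc18b1, which encodes a polyamine transporter of vesicles and is the nearest entry before Vnn3, had 1.27, 0.976 and 1.40 CPM in EV-treated A, B and C, against 5.25, 4.85 and 4.47 CPM in control A, B and C. It fell by 2.00 on the log2 scale (SE 0.19, edgeR adjusted p = 9.13e-06). Beyond Vnn1 the trace amine receptor genes Taar1, Taar2 and Taar3 had 0 counts in all 6 libraries.

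Coasy held a bin that fell further than the gene. The stretch at chr11:101082691-101082998, between its first exon and the exon that holds the start of the coding sequence, had 14, 24 and 19 counts in EV-treated A, B and C, against 93, 91 and 150 in control A, B and C, a log2 ratio of means of -2.23. This bin was chosen after its values were seen and was not tested.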
